A study of Mus musculus with 10 samples.

Results

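The genes described here are 10 oncofetal targets of let-7: Trim71, Hmga1, Hmga2, Igf2bp1, Igf2bp2, Igf2bp3, Arid3a, Arid3b, Plagl2 and Nr6a1. They were chosen by symbol, each taking its brightest probe set over all arrays, and 8 of the 10 were measured among 19938 genes. Hmga1 and Igf2bp2 are not analysed here. RNA came from lenses of mouse embryos at E13.5, with both lenses of an embryo pooled and 1 whole-transcript Affymetrix array per embryo. The 5 DicerCN embryos were Le-Cre+/-;DicerloxP/loxP and the 5 controls Le-Cre-/-;DicerloxP/loxP, so every embryo carried floxed Dicer and only the DicerCN embryos carried Cre. Le-Cre uses the Pax6 P0 promoter, which is active in the surface ectoderm that gives rise to lens and cornea. Cells of other origin that came along in a dissection would therefore keep Dicer, and no Cre-carrying embryo without floxed Dicer was among the arrays.

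Dicer cuts microRNA precursors into mature microRNAs, which guide Argonaute proteins to messenger RNAs and lower their stability and translation. The let-7 microRNAs accumulate as cells differentiate, while Lin28 proteins hold back their maturation in early embryos. Genes that are high in embryonic tissue, silent in most adult tissue and active again in tumours are called oncofetal, and several of them are classical let-7 targets with matching sites in their messages. Mature let-7 was not measured here.

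The mature let-7 sequences are shown because pairing to their common seed is what defines the targets. RefSeq (build GRCm38.p6) gave 9 mature sequences of the 5p arm, each printed 5′ to 3′ with the seed, bases 2 to 8, in capitals.
let-7a-5p (Mirlet7a-1, chr13:48538239-48538260, minus strand): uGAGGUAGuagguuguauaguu
let-7b-5p (Mirlet7b, chr15:85707325-85707346, plus strand): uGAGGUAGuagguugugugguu
let-7c-5p (Mirlet7c-2, chr15:85706616-85706637, plus strand): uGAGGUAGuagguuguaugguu
let-7d-5p (Mirlet7d, chr13:48536078-48536099, minus strand): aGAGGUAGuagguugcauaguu
let-7e-5p (Mirlet7e, chr17:17830366-17830387, plus strand): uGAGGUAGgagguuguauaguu
let-7f-5p (Mirlet7f-1, chr13:48537889-48537910, minus strand): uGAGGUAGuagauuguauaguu
let-7g-5p (Mirlet7g, chr9:106178846-106178867, plus strand): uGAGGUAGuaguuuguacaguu
let-7i-5p (Mirlet7i, chr10:122985698-122985719, minus strand): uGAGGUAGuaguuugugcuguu
miR-98-5p (Mir98, chrX:151913229-151913250, plus strand): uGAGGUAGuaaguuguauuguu

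All 9 carried 1 and the same seed, and they differed from let-7a-5p at up to 4 of 22 bases. Positions are counted from 1 at the 5′ end, with the base of let-7a-5p given first. let-7c-5p differs only by A19G and let-7b-5p by A17G and A19G. let-7d-5p differs by U1A, just outside the seed, and by U16C. let-7i-5p differs most, by G12U, A17G, U18C and A19U. A seed-matched site in a message can thus pair with the seed of each of them.

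The arrays had medians between 6.54 and 6.56 on the log2 scale. Dicer1 ran from 10.01 to 10.32 in controls and from 10.19 to 10.45 in DicerCN lenses (change 0.13, SE 0.08, limma adjusted p = 0.472). Which exons were floxed is not given in the labels and the probe set spans the transcript, so this does not check the genotype. Of the 12 lens markers 0 were called, but only 2 stood above 0 and 2 had an unadjusted p under 0.05 (median change −0.12). Their score ran from −0.10 to 0.10 in controls and from −0.43 to 0.18 in DicerCN lenses. Control replicate 4 had the highest striated muscle score (2.76, the other arrays −0.89 to −0.51) and DicerCN replicate 5 the highest neural retina score (2.0, the other arrays −0.31 to 0.62). A score is the mean log2 signal of a marker list minus its control mean.

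In DicerCN lenses Trim71, Igf2bp1 and Arid3a rose and Hmga2 fell, while Nr6a1, Arid3b, Plagl2 and Igf2bp3 did not pass the test. A gene was called when its limma adjusted p over all genes was under 0.05. By this rule 4 of the 8 measured members were called, 3 higher and 1 lower, against 6.54% of all genes called, 2.56% higher and 3.97% lower. The median change of the 8 was 0.13 on the log2 scale, against −0.0014 for all genes, and the median size of their changes was 0.30 against 0.10. In 3 of the 8 (Trim71, Igf2bp1 and Hmga2) the groups did not overlap, against 7.38% of all genes. These backgrounds are not matched for signal, and all 8 members lay above the median signal (51.0% to 98.4% of genes were dimmer). A fit of only the genes above that median called the same 4 members and 1461 genes, more than the 1303 among all genes. The share of all genes is thus a low background for genes this bright. Single calls depended on the array set: 2 members were called after leaving out any 1 of control replicates 1, 3 and 5 and DicerCN replicates 1 and 5. The rise of Trim71 was the 1 call left among the members in fits with a macrophage or a neural retina score as a covariate. Over all genes those fits called 210 and 1012, against 1303 without a covariate.

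**Figure D1:**
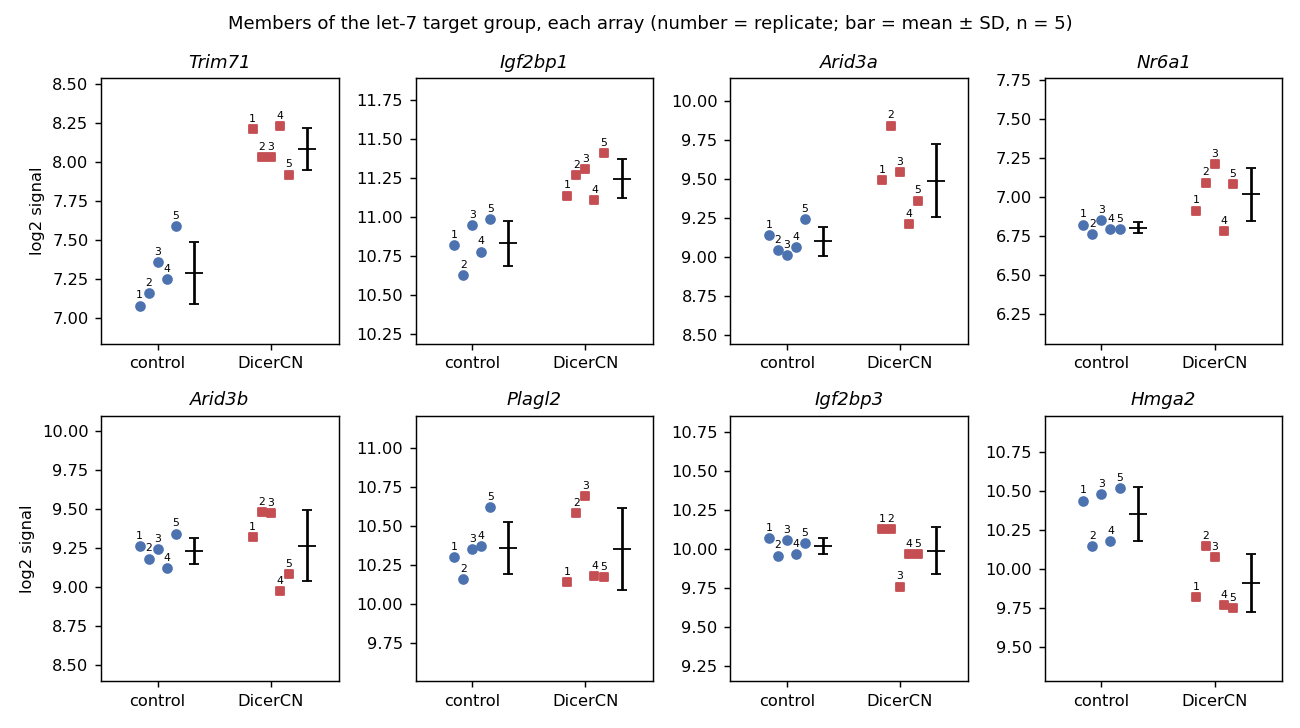
Log2 signal of the 8 measured members in each array, with controls as blue circles and DicerCN arrays as red squares, the replicate number above each point and the mean ± SD (n = 5) as a bar; every panel spans the same log2 range. The 2 groups are clear of each other in Trim71, nearly touch in Hmga2 and mix in Arid3b, Plagl2 and Igf2bp3.

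Trim71, the mammalian Lin-41, is an RNA-binding ubiquitin ligase that keeps early progenitors undifferentiated. Its log2 signals were 7.08, 7.16, 7.36, 7.25 and 7.59 in control replicates 1 to 5 and 8.21, 8.03, 8.03, 8.23 and 7.92 in DicerCN replicates 1 to 5. The lowest DicerCN array stood 0.34 above the highest control. Trim71 was 1.74-fold higher in DicerCN lenses, with a 95% confidence interval of 1.49 to 2.03 (limma adjusted p = 0.000798). The exact 2-sided permutation p was 0.00794, the smallest that 5 arrays against 5 can give. A change of this size or larger was seen in 1.19% of all genes. The call was kept under all 23 alternatives, with changes from 0.75 to 0.88 and adjusted p from 0.000483 to 0.0378. It was also as large without both of the arrays of highest muscle and retina score (0.83, adjusted p = 0.0023).

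The Igf2bp proteins bind messenger RNAs in the cytoplasm and govern their localisation, translation and stability. Igf2bp1 had signals of 10.82, 10.63, 10.95, 10.78 and 10.99 in controls and of 11.14, 11.27, 11.31, 11.11 and 11.41 in DicerCN lenses. The groups did not overlap and were 0.12 apart at their nearest arrays. Igf2bp1 was 1.33-fold higher, within an interval of 1.16 to 1.52 (exact permutation p = 0.00794, and adjusted p = 0.0165 in limma). The call held without any 1 array (adjusted p up to 0.0460) and ended without both the highest-muscle and the highest-retina array (change 0.36, adjusted p = 0.0647). It ended as well with a macrophage, neural retina or pigment epithelium score as a covariate, at changes of 0.52, 0.38 and 0.46 and adjusted p of 0.0845, 0.0555 and 0.0516.

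A second probe set of Igf2bp1, dimmer and not used for the call, also stood higher in DicerCN lenses. It read 8.05, 8.34, 8.23, 8.20 and 8.34 in controls and 8.97, 8.73, 8.56, 9.08 and 8.70 in DicerCN lenses, again with no overlap. Its change was 0.57 (SE 0.11, limma adjusted p = 0.0176 over all probe sets), or 1.49-fold. The order of the DicerCN arrays differed between the probe sets: replicates 1 and 4 were the lowest in the first and the highest in the second.

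Igf2bp3, a close paralog, had signals of 10.07, 9.96, 10.06, 9.97 and 10.04 in controls and of 10.13, 10.13, 9.76, 9.97 and 9.97 in DicerCN lenses. The groups overlapped, and DicerCN replicate 3 was the lowest of all arrays. Its change was −0.03 (95% confidence interval −0.21 to 0.15, limma adjusted p = 0.913), so a rise of the size seen in Igf2bp1 lay outside its interval. The difference between the changes of the paralogs was tested within arrays. Igf2bp1 minus Igf2bp3 was 0.82 ± 0.11 in controls and 1.25 ± 0.23 in DicerCN lenses (SD, n = 5 each), a gain of 0.44 on the log2 scale (exact permutation p = 0.00794, adjusted p = 0.00794 over 2 pairs). Such a difference shows unequal change and says nothing of their relative levels.

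Hmga2 encodes a small chromatin protein whose AT-hooks bind AT-rich DNA, and its message, with several let-7 sites, is a textbook target. It fell. Signals were 10.44, 10.15, 10.48, 10.18 and 10.52 in controls and 9.82, 10.15, 10.08, 9.77 and 9.75 in DicerCN lenses. All DicerCN arrays lay below all controls, but the nearest pair, control replicate 2 and DicerCN replicate 2, was only 0.0062 apart. Hmga2 was 1.36-fold lower in DicerCN lenses (change −0.44, interval −0.67 to −0.21, exact permutation p = 0.00794, and adjusted p = 0.0293 in limma). The call did not outlast the removal of any 1 of 6 arrays, which were control replicates 1, 3 and 5 and DicerCN replicates 1, 4 and 5 (adjusted p from 0.0560 to 0.0812). The fall kept its direction under all 23 alternatives, from −0.50 to −0.27. Its smallest size, −0.27, came with the pigment epithelium score as a covariate (adjusted p = 0.262).

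**Figure D2:**
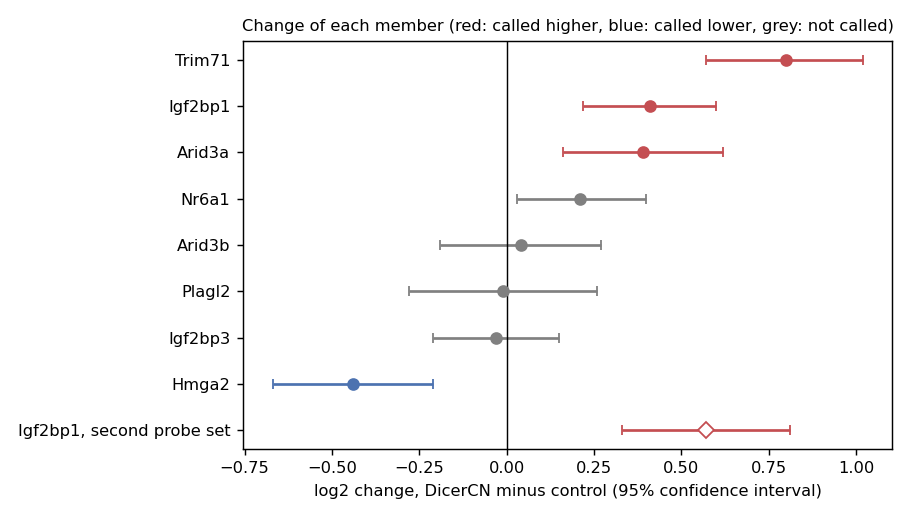
Change of each measured member in DicerCN against control lenses on the log2 scale, with its 95% confidence interval; the open diamond is the second probe set of Igf2bp1, fitted with all probe sets. Trim71 lies farthest to the right at 0.80, Hmga2 alone lies wholly to the left at −0.44, and the intervals of Arid3b, Plagl2 and Igf2bp3 cross 0.

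Arid3a and Arid3b are transcription factors that bind AT-rich DNA through an ARID domain. Arid3a, first known as an activator of immunoglobulin heavy chain genes, had signals of 9.14, 9.04, 9.01, 9.06 and 9.24 in controls and of 9.49, 9.84, 9.54, 9.21 and 9.36 in DicerCN lenses. DicerCN replicate 4 lay within the control range and the other DicerCN arrays above it. Arid3a was 1.31-fold higher (interval 1.12 to 1.54, exact permutation p = 0.0159, and adjusted p = 0.0488 in limma). This call sat at the threshold and was lost when any array but DicerCN replicate 4 was left out (adjusted p from 0.0540 to 0.114). With the pigment epithelium score as a covariate the change was 0.60 (adjusted p = 0.00893), and with the macrophage score 0.51 (adjusted p = 0.151), against 0.39 without either.

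Arid3b read 9.26, 9.18, 9.24, 9.12 and 9.34 in controls and 9.32, 9.48, 9.47, 8.97 and 9.08 in DicerCN lenses. The DicerCN arrays spread to both sides of the controls, with replicates 2 and 3 above all of them and replicates 4 and 5 below. The change was 0.04 (95% confidence interval −0.19 to 0.27, limma adjusted p = 0.909). Within arrays, Arid3a minus Arid3b went from −0.13 ± 0.06 in controls to 0.22 ± 0.11 in DicerCN lenses (SD, n = 5 each). The gain was 0.35 (exact permutation p = 0.00794, adjusted p = 0.00794 over 2 pairs), with every DicerCN array above every control. The within-array difference of this pair had an SD of 0.11 in DicerCN lenses, against 0.23 for each gene alone.

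Plagl2, a zinc-finger transcription factor of the PLAG family, had signals of 10.30, 10.16, 10.35, 10.37 and 10.62 in controls and of 10.14, 10.58, 10.69, 10.18 and 10.17 in DicerCN lenses. Replicates 2 and 3 again stood above the other 3 DicerCN arrays. The groups overlapped, with DicerCN replicate 3 above all controls and replicate 1 just below them. The change was −0.01 (95% confidence interval −0.28 to 0.26, limma adjusted p = 0.980), which bounds a rise at 1.20-fold and a fall at 0.822 of the control level.

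Nr6a1, the orphan nuclear receptor GCNF, represses pluripotency genes as embryonic cells differentiate. It read 6.82, 6.76, 6.85, 6.79 and 6.79 in controls, an SD of 0.04. In DicerCN lenses it read 6.91, 7.09, 7.21, 6.78 and 7.08, an SD of 0.17. DicerCN replicates 1, 2, 3 and 5 were above all controls and replicate 4 was not. The change of 0.21 (95% confidence interval 0.03 to 0.40) did not pass over all genes (adjusted p = 0.188 in limma, unadjusted exact permutation p = 0.0397), nor under any of the 23 alternatives (adjusted p from 0.0711 to 0.521).

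Within a group, most members shared part of their order among the arrays, though not all did. Among the DicerCN arrays, replicates 2 and 3 held the 2 highest values of Hmga2, Arid3a, Arid3b, Plagl2 and Nr6a1, 5 of the 8 members, as they did in 14.1% of all genes. Trim71 had another order, with replicates 1 and 4 highest (12.8% of all genes) and replicate 5 lowest. The pigment epithelium score was −0.09 and 0.08 in replicates 2 and 3 and 0.86, 1.42 and 0.97 in replicates 1, 4 and 5. Among the controls, replicate 5 was the highest in 6 of the 8 members (26.7% of all genes). Of the controls, that array also had the lowest neural retina, macrophage and pigment epithelium scores, at −0.31, −0.34 and −0.15, and the lowest lens and periocular mesenchyme scores, at −0.10 and −0.27. These orders were noticed after the values were seen, and the part of other tissue in them was not tested.

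**Figure D3:**
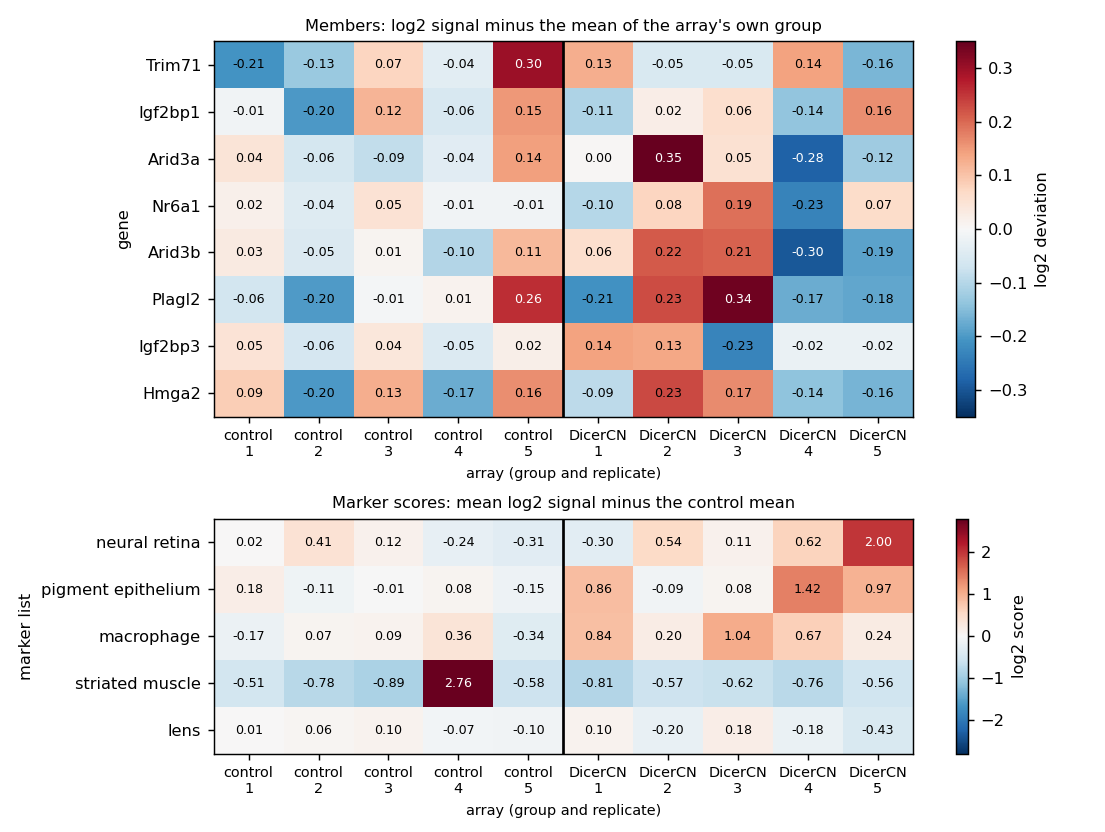
The upper map shows each member's log2 signal in each array minus the mean of that array's own group; the lower map shows marker scores, in log2 units against the control mean, for the same arrays. DicerCN replicates 2 and 3 are red in Hmga2, Plagl2, Arid3a, Arid3b and Nr6a1 and have pigment epithelium scores of −0.09 and 0.08, while control replicate 4 is highest in striated muscle at 2.76 and DicerCN replicate 5 in neural retina at 2.0.

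Markers of other tissues were read in the same arrays, and no score passed after adjustment over the 10 scores. The score of 3 Y-linked genes, which marks sex, ran from −2.79 to 1.84 in controls and from −2.37 to 1.84 in DicerCN lenses. Each group thus held embryos of both sexes. With this score as a covariate Arid3a was not called (limma adjusted p = 0.0756), while Trim71, Igf2bp1 and Hmga2 were. Of all genes, 2.56% were called higher and 3.97% lower. Counts at an unadjusted p under 0.05, here and below, are descriptive only, as the share of all genes at that p was not taken. Of 17 macrophage markers 3 were called higher, 14 had an unadjusted p under 0.05 and 16 stood above 0. The macrophage score ran from −0.34 to 0.36 in controls and from 0.20 to 1.04 in DicerCN lenses (exact permutation p = 0.0317, adjusted p = 0.291). Of 16 neural retina markers 0 were called by limma, 2 had an unadjusted p under 0.05 and 16 stood above 0, with scores from −0.31 to 0.41 in controls and from −0.30 to 2.0 in DicerCN lenses (exact permutation p = 0.151, adjusted p = 0.302). Of 8 pigment epithelium markers 0 were called, 5 had an unadjusted p under 0.05 and 7 stood above 0, with scores from −0.15 to 0.18 and from −0.09 to 1.42 (exact permutation p = 0.0873, adjusted p = 0.291). Of 10 markers of periocular mesenchyme 1 was called higher and 1 lower, and 3 had an unadjusted p under 0.05. Of 8 endothelial, 5 erythroid and 6 surface ectoderm markers 0 were called, with 1, 2 and 2 at an unadjusted p under 0.05. Of 15 striated muscle markers 0 were called and 0 stood above 0, with control replicate 4 at a score of 2.76. In pooled lenses, more cells of a kind and more RNA per cell cannot be told apart. The part of these tissues in the members' changes was not tested beyond the covariate fits given above.

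**Figure D4:**
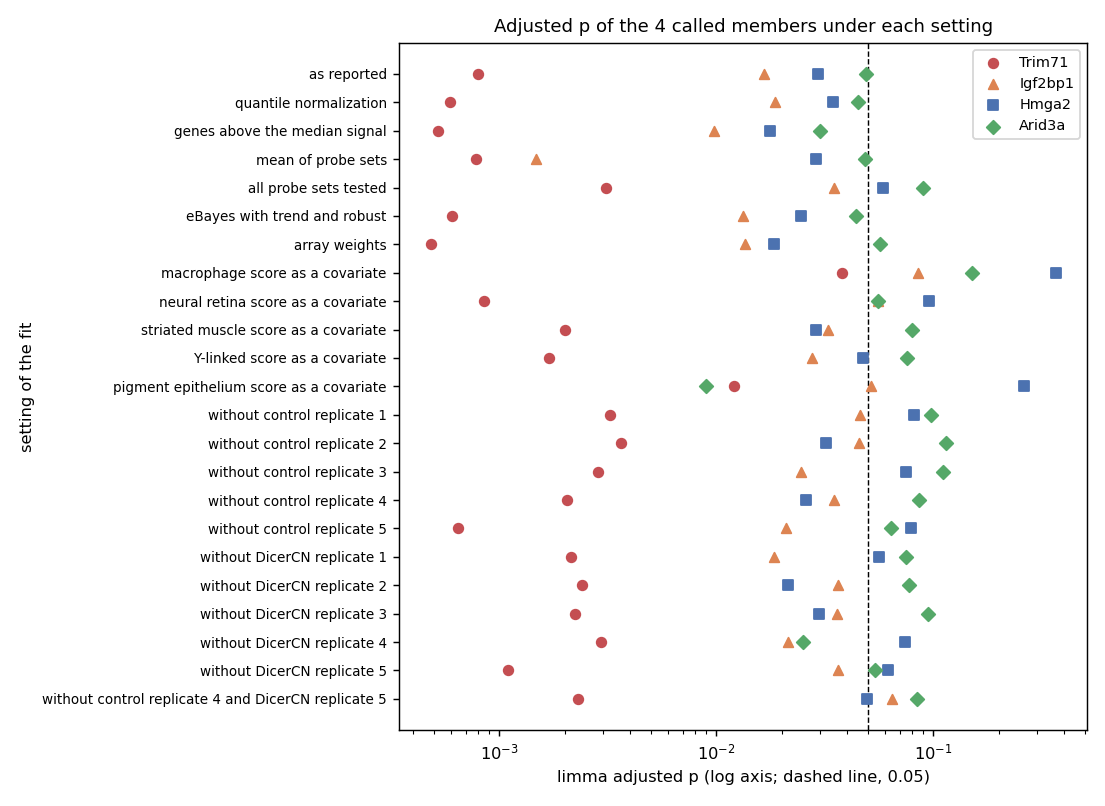
Limma adjusted p, on a log axis, of the 4 called members as reported and under other settings of the fit, with the 0.05 threshold dashed. The replicate block is not plotted. All points of Trim71 lie left of the line, while those of Igf2bp1, Hmga2 and Arid3a lie on both sides of it.

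Other reported let-7 targets were set beside the members. The list was written from general knowledge with earlier results of these data known, so its counts are a description. Of 57 measured genes (63 listed), 9 rose and 1 fell, against 2.56% and 3.97% of all genes, and the median change was 0.078. As for the members, these shares are not matched for signal. Dicer1, the deleted gene, is among the 57, as are Lin28a and Lin28b, which are also counted with let-7 maturation below. Dicer1, Lin28a and Lin28b were not called. The largest rise among the 4 of smallest p was that of Thbs1, the matrix protein thrombospondin 1, at 3.22-fold (log2 9.0 ± 0.45 in control and 10.68 ± 0.51 in DicerCN lenses, limma adjusted p = 0.00171). Ccnd1, cyclin D1, rose 1.79-fold (10.84 ± 0.18 and 11.68 ± 0.23, adjusted p = 0.00136). Ago1, an Argonaute that carries mature microRNAs, rose 1.72-fold (9.93 ± 0.10 and 10.72 ± 0.12, adjusted p = 0.000163). Myc, the growth-promoting transcription factor, was the 1 gene of the list that fell (change −1.01, 95% confidence interval −1.30 to −0.73, adjusted p = 0.000806).

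The other rises, named after their values were seen, were those of Insr, the insulin receptor (0.50), Fndc3b (0.48), E2f2, a transcription factor of the cell cycle (0.46), Cemip2 (0.41), Fndc3a (0.40) and Bach1, a repressor of haem oxygenase (0.36). The rises of Igf2bp1 (0.41) and Arid3a (0.39) lay among these, and that of Trim71 (0.80) lay between those of Ago1 (0.79) and Ccnd1 (0.84). Without the arrays of highest muscle and retina score the counts were again 9 and 1, and with a macrophage covariate 2 and 1. Over all genes these fits called 1154 and 210, against 1303 in the fit as reported. In the macrophage fit Thbs1 was not called (change 0.96, adjusted p = 0.0719).

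**Figure D5:**
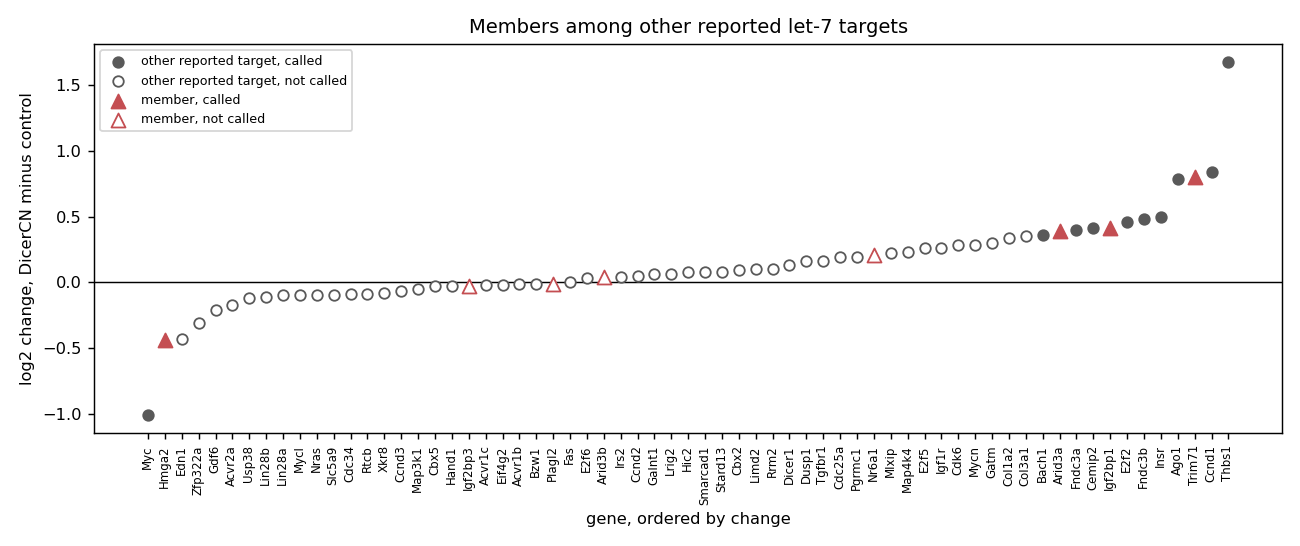
Log2 change in DicerCN against control lenses of the 8 measured members (red triangles) and of 57 other reported let-7 targets (grey circles), ordered by change; filled symbols were called. Myc at −1.01 and Hmga2 at −0.44 are the 2 called genes below 0, and Trim71 at 0.80 is the third highest gene of the plot.

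Genes that govern let-7 itself were taken next. Of 14 measured genes of let-7 maturation and decay, 0 rose and 1 fell in limma, against 2.56% and 3.97% of all genes. An unadjusted p under 0.05 was seen in 3. Lin28a and Lin28b, the RNA-binding proteins that block let-7 maturation and are let-7 targets in turn, stood at −0.10 (95% confidence interval −0.28 to 0.07) and −0.11 (−0.32 to 0.09), with adjusted p of 0.582 and 0.608. Dis3l2, an exonuclease that degrades tailed let-7 precursors, fell (change −0.32, SE 0.08, adjusted p = 0.0410), and this call was lost on leaving out any array but control replicate 4 or DicerCN replicate 5 (0.0602 to 0.117), and with a macrophage covariate (adjusted p = 0.492). Tarbp2, a partner of Dicer, stood at −0.24 (SE 0.07, adjusted p = 0.0782). It passed under 2 of 23 alternatives, which included the mean of its probe sets (−0.28, adjusted p = 0.0292). Trim25, reported to aid the tailing of let-7 precursors, stood at 0.34 (adjusted p = 0.111). It passed under 3 of 22 alternatives. The largest change, 0.48, came without the arrays of highest muscle and retina score (adjusted p = 0.0109). With the macrophage covariate its change was 0.08 (adjusted p = 0.857). Msi1, an RNA-binding protein of neural progenitors, stood at 0.24 (adjusted p = 0.376).

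Among 22 measured RNAs and genes reported downstream of the members, 2 rose and 0 fell in limma, against 2.56% and 3.97% of all genes. An unadjusted p under 0.05 was seen in 9. Igf2, the fetal growth factor whose message gave the Igf2bp family its name, rose 1.37-fold (12.56 ± 0.20 in control and 13.01 ± 0.11 in DicerCN lenses, limma adjusted p = 0.0178). Rbl2, a pocket protein of the retinoblastoma family whose message is reported as a Trim71 target, rose 1.42-fold (8.13 ± 0.18 and 8.64 ± 0.30, adjusted p = 0.0462). Igf2 missed the threshold when control replicate 1 was left out (adjusted p = 0.0561) and with a macrophage covariate (adjusted p = 0.234). The call of Rbl2 was lost on leaving out any array but control replicate 3 or DicerCN replicate 4 (0.0506 to 0.116), and with a macrophage covariate (adjusted p = 0.451). Egr1, an immediate early gene also reported as a Trim71 target, stood at 0.49 (SE 0.15, adjusted p = 0.0703). It passed under 9 of 23 alternatives. The largest change, 0.69, came without the arrays of highest muscle and retina score (adjusted p = 0.00544). With the macrophage covariate its change was 0.19 (adjusted p = 0.738). Mapk4, whose message is reported to bind Igf2bp1, stood at 0.37 (SE 0.11, adjusted p = 0.0776) and passed under 3 of 22 alternatives.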

How the data were processed

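The deposited table holds log2 signals of 35557 probe sets on 10 arrays. The log base is read from the values (1.91 to 15.2), and the authors' summarisation and scaling are not given in the sources used here. The submitters' processing notes name GCOS. RNA (100 ng per array) was labelled by the Affymetrix whole-transcript assay, per the labels' protocols. Platform annotation gave 1 symbol for 21789 probe sets, 21698 of them matched to RefSeq by gene ID, and the brightest probe set per gene left 19938 genes. Probe sets with several symbols (1621) or none (12147) were left out. Groups were compared with limma 3.58.1 (R 4.3.3; lmFit, eBayes, 2-sided, Benjamini-Hochberg over all genes), and single values by exact permutation over 252 splits. The code was tested on simulated data. The named genes are the members, Dicer1 and the 4 genes of smallest p in each list; others are marked. The members and lists were chosen with earlier results of these data known. Arrays hold no counts of molecules, and precision is set by their number (median SE of a gene 0.099). No column of another sample was used. Alternatives covered normalization, a signal filter, the probe set rule, the variance model, array weights, single arrays, a block and marker covariates. The pigment epithelium covariate and leaving out 2 arrays together were added after seeing the data. Only 2 of the 5 planned paralog pairs were measured. The arrays of a group are labelled as independent embryos.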

Additional observations from a re-analysis of the deposited data

Results flagged for a closer look

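Of 34 groups of 5 arrays checked (the 8 members and 9 marker scores, in each genotype), 2 held an array far from the rest of its group, and chance gives about 1 in 20. Both were control replicate 4: its striated muscle score was 2.76, and its periocular mesenchyme score was 0.66. No member had such an array in either group. Without control replicate 4, Trim71, Igf2bp1 and Hmga2 were called (limma adjusted p = 0.00205, 0.0349 and 0.0258) and Arid3a was not (0.0855).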

How the results depend on the processing

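Of the 4 called members, the call of Trim71 was kept under all 23 alternatives, that of Igf2bp1 under 19, of Hmga2 under 12 and of Arid3a under 6, and none of the 4 changed direction. The number of members called was 2 with all probe sets tested together, with the replicate block, with the pigment epithelium covariate and after leaving out control replicate 4 with DicerCN replicate 5, and 1 with the macrophage or the neural retina covariate. It ran from 2 to 3 with 1 array left out. The number of all genes called, 1303, became 210 with the macrophage, 1012 with the neural retina and 662 with the pigment epithelium covariate. It ran from 784 (without control replicate 1) to 1295 with 1 array left out, and was 865 without control replicate 2. The cause was not tested. Plagl2, near 0, changed sign after quantile normalization (0.0036), with the macrophage (0.01), neural retina (0.06), Y-linked (0.01) and pigment epithelium (0.23) covariates and after leaving out control replicate 4 with DicerCN replicate 5 (0.04), and ran from −0.10 to 0.05 with 1 array left out. Igf2bp3 did so with the macrophage covariate (0.08; −0.06 to 0.03 with 1 array left out), and Arid3b with array weights (−0.00098; −0.02 to 0.11 with 1 array left out). None of these passed the test. Same-numbered arrays did not deviate together (correlations from −0.088 to 0.19, and 2 of 10 arrays matched their own number best). The labels give no pairing, and such correlations cannot show that these arrays shared no litter or processing day. With the replicate block 1100 genes were called, and Hmga2 and Arid3a were not (limma adjusted p = 0.0577 and 0.0824). The paralog differences with that block, 0.44 and 0.35, gave an exact p of 0.0625, the smallest that 5 pairs allow, and with 1 array left out they ran from 0.37 to 0.50 and from 0.32 to 0.39.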

Other observations

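The let-7 precursor genes with a probe set of their own numbered 10, with changes from −0.11 to 0.27. Of these 0 were called by limma, against 6.54% of all genes. One, Mirlet7g, had an unadjusted p under 0.05 (change 0.27, 95% confidence interval 0.02 to 0.52, limma adjusted p = 0.228). These probe sets read precursor transcripts and not the mature microRNA.

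Of 18 relatives of the members, 0 were called by limma, against 6.54% of all genes, and 4 had an unadjusted p under 0.05. These were Hmgn3 (change −0.41, SE 0.13, limma adjusted p = 0.0982) and Hmgn2 (−0.28), nucleosome-binding proteins, Hmgb3 (0.32), a DNA-bending protein, and Arid5b (0.48), an ARID-domain factor whose DicerCN arrays all lay above the controls. Arid3c, the third gene of its family, stood at 0.11 (95% confidence interval −0.10 to 0.32), and Plag1, the relative of Plagl2, at 0.03 (−0.17 to 0.24). Hmgn3 passed with array weights (adjusted p = 0.0436) and with the striated muscle covariate (adjusted p = 0.0430). The spread of 5 of the 8 members was at least 1.5 times as large in DicerCN as in control lenses, against 38.1% of all genes. The ratio of SDs was largest for Nr6a1 (4.64, from 0.04 in controls to 0.17), then for Igf2bp3 (2.98, from 0.05 to 0.15) and Arid3b (2.84, from 0.08 to 0.23). These ratios start from small control SDs, and the largest SD in DicerCN lenses was that of Plagl2, at 0.26.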
